A study of Mus musculus with 4 samples.

Results

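Mir-22, mir-210 and mir-185 (gene symbols Mir22, Mir210 and Mir185) are 3 microRNA (miRNA) genes linked to red cell formation, here followed in small RNA from mouse fetal liver, the main site of red cell formation before birth. They were taken by name from 2202 annotated miRNA hairpins, and every read of 18 to 27 nt that matched one of the 3 hairpins without mismatch was counted, together with reads that carried 1 to 3 extra nt at the 3′ end. The libraries came from Ago2 CD fetal liver (2 libraries), in which the Argonaute protein Ago2 is catalytically dead, and from wildtype fetal liver (2 libraries). Ago2 carries miRNAs and, unlike most Argonautes, can slice a target paired to its guide; the mutant protein has lost this slicing. The labels name the tissue and the genotype, and the design text calls the libraries of a genotype biological replicates; stage, strain, sex and whether livers were pooled are not given in the sources used here. The total number of reads was 21875540 and 15238066 in Ago2 CD replicates 1 and 2 and 15841697 and 13138065 in wildtype replicates 1 and 2. The 3 hairpins gave 110034 and 99929 untailed reads of 18 to 27 nt in Ago2 CD, against 48029 and 34226 in wildtype.

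A miRNA is cut from a hairpin by Drosha and Dicer as a short duplex, of which 1 strand is kept in Argonaute as the guide and the other, the passenger, is mostly lost. Bases 2 to 8 of the guide, the seed, choose the target mRNAs, and the 3′ end is open to trimming and to addition of A or U by nucleotidyltransferases. MiR-22 is a widely expressed miRNA known in mouse to act on the mRNA of Tet2, an enzyme that oxidises methylated DNA in blood stem cells. MiR-210 is the best-known miRNA induced by low oxygen through the HIF factors and acts on Iscu, a scaffold for iron-sulfur clusters. MiR-185 has been studied as a regulator of cholesterol uptake and synthesis.

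The mir-22 hairpin lies on chromosome 11 (gene ENSMUSG00000065529.1, 75463716 to 75463810, plus strand, GRCm38), where the annotation gives an exon of Mir22hg, its non-coding host gene, and also of a transcript of Tlcd2. Mir-185 lies on chromosome 16 (gene ENSMUSG00000065464.2, 18327401 to 18327465, minus strand), in an intron of Tango2 on the same strand. Mir-210 lies on chromosome 7 (gene ENSMUSG00000065551.1, 141221384 to 141221493, minus strand) with no other annotated gene over it; Rassf7, on the plus strand, is the nearest one, 2726 bases away. The hairpins are given from RefSeq (build GRCm38.p6), with the most frequent read of each arm over the 4 libraries together in capitals. They are shown because every value that follows is the level, the start or the end of one of these stretches.
mir-22: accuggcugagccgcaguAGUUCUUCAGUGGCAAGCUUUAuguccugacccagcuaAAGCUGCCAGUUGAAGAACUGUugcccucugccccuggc
mir-210: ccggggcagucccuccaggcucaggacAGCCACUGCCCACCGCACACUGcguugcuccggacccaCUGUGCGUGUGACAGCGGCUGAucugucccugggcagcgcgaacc
mir-185: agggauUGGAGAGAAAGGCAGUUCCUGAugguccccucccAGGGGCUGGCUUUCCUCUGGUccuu

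RefSeq's table held 5 mature sequences of these hairpins, shown next with the seed (bases 2 to 8) in capitals. For miR-185-5p, not in that table, the most frequent deposited read over the 4 libraries together is shown, in the letters of the files.
miR-22-3p: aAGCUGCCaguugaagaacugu
miR-22-5p: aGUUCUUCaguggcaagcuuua
miR-210-3p: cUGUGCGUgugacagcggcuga
miR-210-5p: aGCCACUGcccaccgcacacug
miR-185-3p: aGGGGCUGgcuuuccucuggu
miR-185-5p: tGGAGAGAaaggcagttcctga
No seed was shared between these arms. Over the 4 libraries together, the most frequent deposited read was the RefSeq mature sequence, base for base, for the 5 arms having one. In Ago2 CD replicate 2 and wildtype replicate 1, shorter reads of both arms of mir-210 and of miR-185-5p were more frequent. There miR-210-3p had 1089 and 254 reads of 19 nt, against 468 and 152 of the mature sequence. MiR-210-5p had 44 and 27 reads of 20 nt, against 30 and 25 of the mature sequence. MiR-185-5p had 3842 and 1494 reads of 19 nt, against 3673 and 1364 of the read shown.

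The folds predicted by RNAfold set these hairpins beside that of mir-486, a red cell miRNA whose passenger strand Ago2 is known to cut. That cut falls opposite guide bases 10 and 11. In the mir-486 fold all 22 bases of the most frequent 5p read were paired. In the mir-22 fold 21 of 22 bases of miR-22-3p were paired, and the unpaired one was base 10. MiR-210-3p had bases 1, 8, 12, 16 and 22 unpaired and bases 10 and 11 paired. MiR-185-5p had bases 6, 12 and 22 unpaired and bases 10 and 11 paired.

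The first comparison asked whether the level of these miRNAs differed when Ago2 cannot cut. None of the 6 arms passed the test, although 5 of them had higher values in Ago2 CD within each pair of libraries of the same read length. Of all arms, 70.5% had the same direction in both pairs, whether higher or lower. The share of all arms that were higher in both pairs was not counted. Levels are CPM, counts of untailed reads scaled to a common library size with TMM factors. Tests are edgeR's quasi-likelihood test over 583 arms with Benjamini-Hochberg adjustment. The threshold, an adjusted p under 0.05, was passed by 0.343% of arms (3.09% at an unadjusted p under 0.05), which were miR-451a and the 3p arm of miR-486. The longest read was 46 nt in Ago2 CD replicate 1 and wildtype replicate 2 and 50 nt in Ago2 CD replicate 2 and wildtype replicate 1. These are called the 46 nt and the 50 nt libraries, and each kind holds 1 library of each genotype. How the kinds came about is not given in the sources used here.

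MiR-210-3p, the guide of mir-210, had 281 and 215 CPM in Ago2 CD replicates 1 and 2, against 102 and 186 CPM in wildtype replicates 1 and 2. These came from 5603 and 2045 reads in Ago2 CD and from 611 and 1650 reads in wildtype. Both Ago2 CD libraries lay above both wildtype libraries, and the lowest value was that of wildtype replicate 1. The means were 248 ± 46.8 CPM in Ago2 CD and 144 ± 59.4 CPM in wildtype (SD, n = 2 each). The log2 fold change was 0.78 (SE 0.42, edgeR adjusted p = 0.996), or 0.59 within the 46 nt pair and 1.07 within the 50 nt pair. With read length added to the edgeR model, miR-210-3p passed at a log2 fold change of 0.83 (adjusted p = 0.0464), and 26 of 583 arms passed in all; that model leaves 1 residual degree of freedom. Further fits of this model were added after seeing the data. Over the same 583 arms, limma-voom called 42 and edgeR's non-legacy quasi-likelihood 111. DESeq2, fitted to all 1469 arms with a read, called 34, so its count is not on the same set. How many arms passed thus differed between these fits. MiR-210-3p passed in each of them, with an adjusted p of 0.0259 by limma-voom, 0.00127 by DESeq2 and 5.82e-05 by non-legacy edgeR, and in no fit run without read length. The log2 fold change was 1.31 without wildtype replicate 2 and 0.46 without wildtype replicate 1, and did not pass in either case.

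MiR-185-5p had 721 and 940.0 CPM in Ago2 CD, from 14368 and 8939 reads, against 583 and 544 CPM in wildtype, from 3481 and 4820 reads. Its groups did not overlap either, and its wildtype libraries lay close together. The means were 831 ± 155 CPM in Ago2 CD and 564 ± 27.3 CPM in wildtype (SD, n = 2 each). The log2 fold change was 0.56 (SE 0.28, edgeR adjusted p = 0.996), with 0.41 and 0.69 within the 46 nt and 50 nt pairs, and 0.37 without Ago2 CD replicate 2. With read length in the model it passed by DESeq2 (adjusted p = 0.0246) and non-legacy edgeR (adjusted p = 0.00389), but not by edgeR as used here (adjusted p = 0.0598) or limma-voom (adjusted p = 0.0519).

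MiR-22-3p was the most abundant of the arms, with 4409 and 9265 CPM in Ago2 CD and 7293 and 3049 CPM in wildtype. Its reads numbered 87844 and 88100 in Ago2 CD and 43535 and 26994 in wildtype. The genotypes overlapped, because both 50 nt libraries lay above both 46 nt libraries; the kinds did not overlap, in 1 direction or the other, for 60.4% of arms. The means were 6837 ± 3434 CPM in Ago2 CD and 5171 ± 3001 CPM in wildtype (SD, n = 2 each). The log2 fold change was 0.40 (SE 0.61, edgeR adjusted p = 0.996), 0.53 and 0.35 within the 46 nt and 50 nt pairs, and it passed with read length in the model by non-legacy edgeR alone (adjusted p = 0.0230; 0.0519 to 0.105 by the others). It turned negative without Ago2 CD replicate 2 (-0.21) or wildtype replicate 2 (-0.09).

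The other strands were rare. MiR-22-5p had 95.5 and 71.4 CPM in Ago2 CD and 52.3 and 67.1 CPM in wildtype (log2 fold change 0.48, SE 0.35, edgeR adjusted p = 0.996). MiR-185-3p had 6.93 and 5.05 CPM in Ago2 CD and 3.18 and 4.74 CPM in wildtype, from at most 138 reads. For both of them the Ago2 CD libraries lay above the wildtype libraries. MiR-210-5p had 8.98 and 12.4 CPM in Ago2 CD and 11.9 and 14.2 CPM in wildtype; it was the arm of the 6 with a negative log2 fold change (-0.29, SE 0.38), which was -0.65 within the 46 nt pair and 0.06 within the 50 nt pair. Leaving out a library moved these changes, to between 0.27 without Ago2 CD replicate 1 and 0.71 without wildtype replicate 2 for miR-22-5p. For miR-210-5p they lay between -0.06 without Ago2 CD replicate 1 and -0.53 without Ago2 CD replicate 2, and for miR-185-3p between 0.35 without Ago2 CD replicate 1 and 0.94 without wildtype replicate 2. In all, 4 of the 6 arms had both Ago2 CD libraries above both wildtype libraries, a pattern found in 15.8% of the arms tested.

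**Figure D1:**
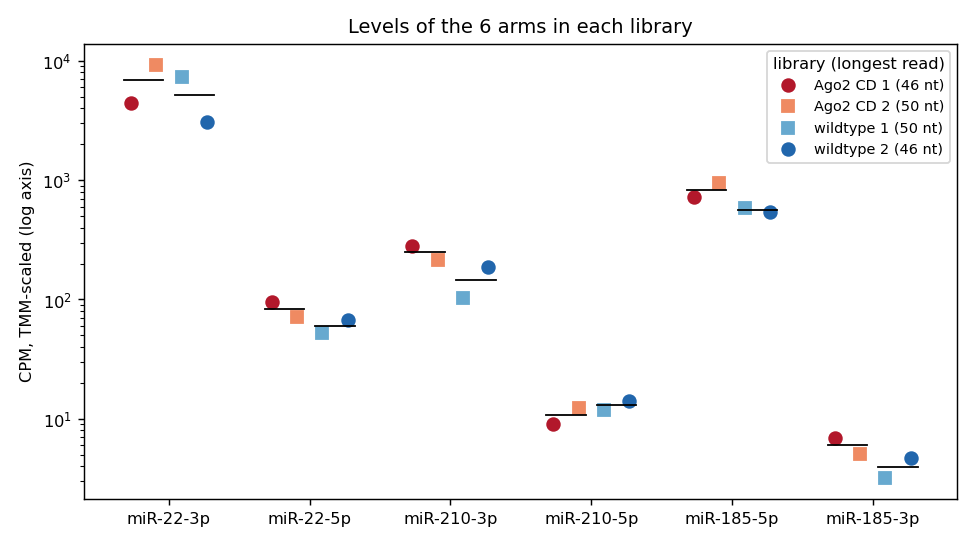
Level of each arm of mir-22, mir-210 and mir-185 (CPM with TMM-scaled library sizes, log axis) in each of the 4 libraries; circles are 46 nt libraries, squares 50 nt libraries, and bars the means of 2 libraries. MiR-22-3p spans 3049 to 9265 CPM with both squares on top, while for miR-185-5p both Ago2 CD libraries lie above both wildtype libraries.

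In order of mean level over the 4 libraries, miR-22-3p (6004 CPM) was followed by miR-185-5p (697 CPM), miR-210-3p (196 CPM), miR-22-5p (71.6 CPM), miR-210-5p (11.9 CPM) and miR-185-3p (4.98 CPM). The ranges of neighbours in this order did not overlap. Levels, their read numbers and the arm ratio count untailed reads only. Tailed reads, left out of them, made up 5.19% and 29.5% of all miR-22-3p reads in Ago2 CD and 23.9% and 6.85% in wildtype. Reads of 16 and 17 nt were left out as well. They made up 21.0% and 1.77% of untailed mir-210 reads in Ago2 CD and 2.29% and 19.2% in wildtype. For mir-185 such short reads made up 20.6% and 1.27% in Ago2 CD and 1.24% and 23.4% in wildtype, so that they too followed the kind of library. For mir-22 they made up at most 2.60%.

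TMM scaling put the median log2 fold change of all arms at 0.04. With reads on arms as library size, which in wildtype counts the abundant miR-451a, this median was 0.74. The 6 log2 fold changes were then 1.22 for miR-22-3p, 1.17 for miR-22-5p, 1.42 for miR-210-3p, 0.38 for miR-210-5p, 1.27 for miR-185-5p and 1.27 for miR-185-3p. Measured against that median, miR-210-5p remained the lowest of them and miR-210-3p the highest.

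The arms whose pattern over the 4 libraries was most like that of each main arm were found by the root mean square difference of centred log2 CPM, among 202 other arms with a mean of at least 100 CPM. For miR-22-3p these were miR-335-3p (difference 0.03), miR-872-5p (0.08) and miR-361-5p (0.14). MiR-335-3p had 748 and 1662 CPM in Ago2 CD and 1271 and 521 CPM in wildtype, and so shared the higher values in the 50 nt libraries. For miR-210-3p they were miR-433-3p (0.13), miR-574-5p (0.16) and let-7d-5p (0.19). MiR-433-3p had 937 and 741 CPM in Ago2 CD and 432 and 711 CPM in wildtype. For miR-185-5p they were miR-17-3p (0.12), miR-485-3p (0.14) and miR-16-2-3p (0.15). None of these 9 arms passed the edgeR test (adjusted p = 0.996 for each).

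The 3 miRNAs belong to a list of 16 erythroid hairpins, which gave 27 tested arms. Of these, 1 rose and 1 fell, the 3p arm of miR-486 and miR-451a-5p, and 25 did not pass. The median log2 fold change of the list was 0.03, beside 0.04 for all arms. MiR-144-3p, the most abundant arm of the list in Ago2 CD, had 241961 and 326276 CPM there and 277554 and 163346 CPM in wildtype. Markers of 9 cell types were summed as well, and every hairpin of these lists had reads. The erythroid sum was 248472 and 332651 CPM in Ago2 CD and 1123712 and 585607 CPM in wildtype. It holds miR-144-3p, whose groups overlapped, and miR-451a-5p, with 1203 and 965 CPM in Ago2 CD and 841560 and 415566 CPM in wildtype. The mesenchymal sum was 3606 and 3322 CPM in Ago2 CD and 4058 and 3853 CPM in wildtype. Both sums were lower in Ago2 CD without overlap, as were 14.1% of single arms tested, and 7 sums overlapped. The hepatocyte sum was 75387 and 35657 CPM in Ago2 CD and 26207 and 58852 CPM in wildtype, higher in both 46 nt libraries, as was miR-210-3p within each genotype. The part of cell composition in the values of these miRNAs was not tested, and in whole liver fewer cells of a type and less RNA per cell cannot be told apart.

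**Figure D2:**
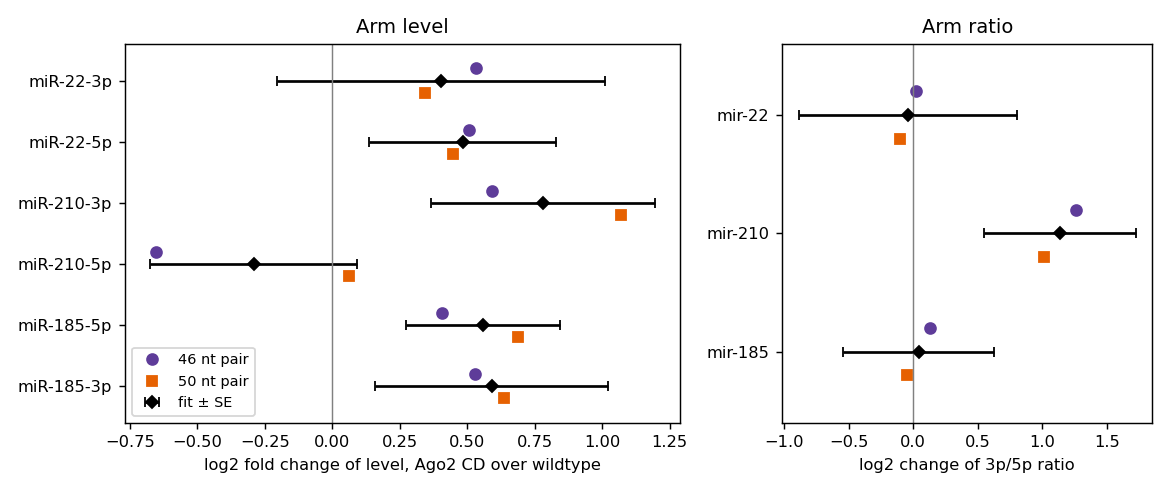
Log2 fold change of level (left) and log2 change of the ratio of 3p to 5p reads (right), Ago2 CD over wildtype; diamonds with bars are the fit ± SE over 4 libraries, circles and squares the differences within the 46 nt and the 50 nt pair. Both pairs lie above 0 for the level of every arm but miR-210-5p, and for the arm ratio of mir-210.

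The balance of the 2 strands of a hairpin was compared next, since loss of Ago2 cutting can leave passenger strands in place. The guide was the 3p arm for mir-22 and mir-210 and the 5p arm for mir-185 in every library. None of the 3 hairpins passed the test on this ratio. Of 283 hairpins tested with limma on the log2 ratio of 3p to 5p reads, 0.707% passed (3.18% at an unadjusted p under 0.05), which were mir-451a and the hairpin of mir-486, counted together with mir-3107 on the opposite strand.

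Mir-210 was the hairpin of the 3 whose groups did not overlap. Its 3p arm made up 96.9% and 94.5% of arm reads in Ago2 CD, against 89.6% and 92.9% in wildtype. Its passenger, the 5p arm, thus took a smaller share in both Ago2 CD libraries. The 5p reads behind these shares numbered 179 and 118 in Ago2 CD and 71 and 126 in wildtype, and the exact (Clopper-Pearson) 95% intervals of the shares were at most 4.73 percentage points wide. The log2 change of the ratio was 1.14 (SE 0.58, limma adjusted p = 0.995), with 1.26 and 1.01 within the 46 nt and 50 nt pairs. Among all hairpins, 14.1% had both Ago2 CD libraries above both wildtype libraries. The log2 change was 0.71 without Ago2 CD replicate 1 and 1.56 without Ago2 CD replicate 2.

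For mir-22 the 3p arm made up 97.9% and 99.2% in Ago2 CD and 99.3% and 97.8% in wildtype. The shares paired by kind of library rather than by genotype, and the log2 change of the ratio was -0.04 (SE 0.84, limma adjusted p = 0.995). The 3p arm of mir-185, its passenger, made up 0.951% and 0.534% in Ago2 CD and 0.543% and 0.864% in wildtype, again paired by kind of library. The kinds did not overlap for 59.0% of hairpins. Its log2 change was 0.04 (SE 0.59, limma adjusted p = 0.995).

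Most reads without a tail of each arm started at the first base of the sequence shown above, which sets the seed. The main start held 95.2% and 95.5% of miR-22-3p reads in Ago2 CD and 96.2% and 94.95% in wildtype. For miR-185-5p it held 95.7% and 98.3% in Ago2 CD and 98.2% and 95.4% in wildtype. MiR-210-3p was less uniform, with 86.5% and 93.4% in Ago2 CD and 89.4% and 86.1% in wildtype. A start 1 base earlier, at hairpin position 65, held 4.44% and 4.69% of miR-210-3p reads in Ago2 CD and 8.84% and 4.48% in wildtype. A start 3 bases later, at position 69, held 4.71% and 0.0489% in Ago2 CD and 0% and 4% in wildtype, where the value of 0 comes from 611 reads. Of the rare arms, miR-22-5p had 94.3% to 96.2% at its main start and miR-210-5p 84.7% to 95.5%. MiR-185-3p, with at most 138 reads, had 76.8% and 72.9% in Ago2 CD and 73.7% and 85.7% in wildtype, and a start 1 base earlier, which shifts the seed, held 17.4% and 27.1% in Ago2 CD and 26.3% and 7.14% in wildtype. Of the arms of these hairpins 4 reached 200 reads in each library, and none of them passed the limma test on the share of the main start (adjusted p = 0.997 for each), and 0 of 253 arms did, with 0.791% at an unadjusted p under 0.05.

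Read lengths of the 3 main arms separated the libraries by kind and overlapped between genotypes. Of the miR-185-5p reads in the 46 nt libraries, 72.4% were 22 nt long in Ago2 CD replicate 1 and 72.5% in wildtype replicate 2. In the 50 nt libraries 22 nt reads made up 41.1% in Ago2 CD replicate 2 and 39.2% in wildtype replicate 1. There a form of 19 nt reached 43.3% in Ago2 CD and 43.3% in wildtype, against 2.99% and 2.28% in the 46 nt libraries of Ago2 CD and wildtype. MiR-210-3p behaved in a like way: its 19 nt form made up 53.5% in Ago2 CD and 42.2% in wildtype of the 50 nt kind, and 7.89% in Ago2 CD and 7.09% in wildtype of the 46 nt kind. The full and the short forms are shown with the seed in capitals, since they share their seed and differ by the last 3 bases.
miR-185-5p 22 nt: tGGAGAGAaaggcagttcctga
miR-185-5p 19 nt: tGGAGAGAaaggcagttcc
miR-210-3p 22 nt: cTGTGCGTgtgacagcggctga
miR-210-3p 19 nt: cTGTGCGTgtgacagcggc

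In numbers, the 19 nt form of miR-185-5p from the main start had 363 and 3842 reads in Ago2 CD and 1494 and 88 reads in wildtype. That of miR-210-3p had 189 and 1089 reads in Ago2 CD and 254 and 50 in wildtype. MiR-22-3p went the other way, with its 22 nt form at 83.1% and 92.4% in Ago2 CD and 93.2% and 81.1% in wildtype. For each of the 6 arms the end that gained most in the 50 nt libraries was followed in the hairpin by a U, a feature seen only after the ends had been tabulated. For miR-185-3p that end rests on 4 and 2 reads. Among 213 arms of a single hairpin with at least 200 reads in each library, this was so for 51.6%. The trimming settings are not given in the sources used here, and the part of library making or read trimming in the 19 nt forms, and in the C tails described further on, was not tested. This end held 43.5% of miR-185-5p reads in Ago2 CD replicate 2 and 43.5% in wildtype replicate 1. For miR-210-5p it held 39.8% and 38.03% in these libraries, against 2.23% in Ago2 CD replicate 1 and 2.38% in wildtype replicate 2.

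How far 2 libraries differed in their 3′ ends was summarised as the percentage of an arm's reads that would have to end elsewhere for the ends to match. For miR-185-5p this was 1.04% between Ago2 CD and wildtype within the 46 nt kind and 1.98% within the 50 nt kind. Between the Ago2 CD libraries it was 40.8%, and between the wildtype libraries 42.6%. For miR-210-3p it was 1.45% and 10.4% between genotypes within the 46 nt and 50 nt kinds, 57.5% between the Ago2 CD libraries and 52.8% between the wildtype libraries. For miR-22-3p the corresponding values were 1.69%, 0.257%, 9.65% and 11.5%. The intervals of end shares, for counting error only, were at most 0.846 points wide for miR-22-3p, 3.32 points for miR-185-5p and 8.04 points for miR-210-3p.

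The mean length of untailed reads was 21.7 and 20.5 nt for miR-185-5p in Ago2 CD and 20.5 and 21.7 nt in wildtype. It was 21.3 and 20.1 nt for miR-210-3p in Ago2 CD and 20.2 and 21.3 nt in wildtype, and 21.7 and 21.8 nt for miR-22-3p in Ago2 CD and 21.9 and 21.7 nt in wildtype. The differences between genotypes were -0.005 nt (SE 0.65) for miR-185-5p, -0.07 nt (SE 0.63) for miR-210-3p and -0.002 nt (SE 0.12) for miR-22-3p, with a limma adjusted p of 0.9998 for each. The passengers of mir-185 and mir-210, with too few reads to be tested, did not overlap between genotypes. MiR-185-3p averaged 20.8 and 20.9 nt in Ago2 CD and 20.6 and 20.6 nt in wildtype, with Ago2 CD above, as for 3.56% of arms tested, and miR-210-5p 20.8 and 20.9 nt in Ago2 CD and 20.9 and 21.3 nt in wildtype, with Ago2 CD below, as for 6.32%. Of 253 arms tested for mean length 0.395% passed, which was miR-451a-5p, and 0.791% had an unadjusted p under 0.05. For 83.8% of them the kinds of library did not overlap in mean length.

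**Figure D3:**
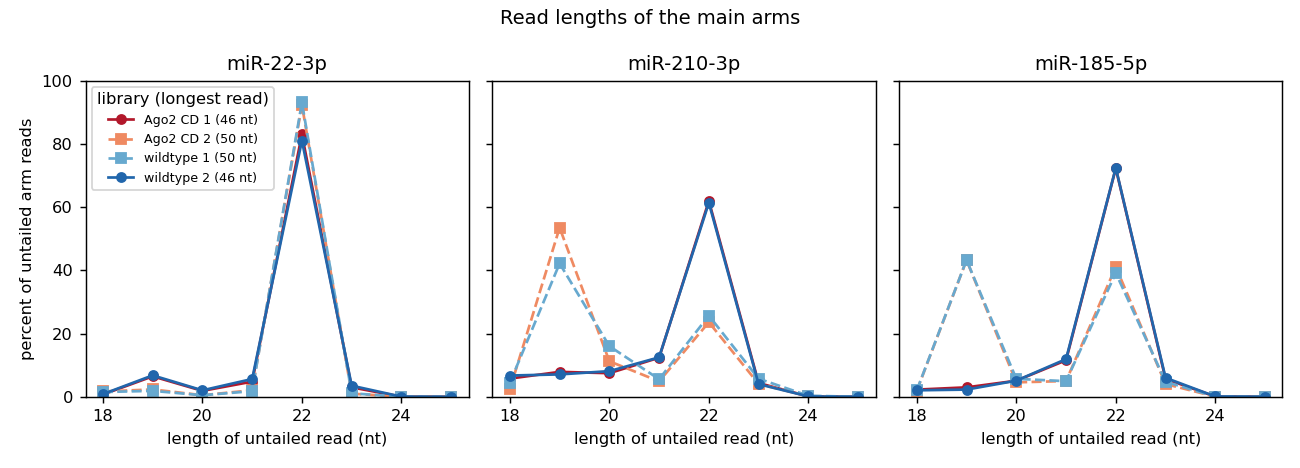
Length of untailed reads (x axis, nt) as a percent of the arm's untailed reads (y axis) for the main arm of each hairpin; solid lines are 46 nt libraries, dashed lines 50 nt libraries. For miR-185-5p and miR-210-3p the 46 nt lines nearly coincide across genotypes, and the 50 nt libraries have a second peak at 19 nt (53.5% in Ago2 CD and 42.2% in wildtype for miR-210-3p, 43.3% in both for miR-185-5p).

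Added 3′ bases, or tails, were found on all 3 main arms, on miR-22-3p mostly in the 50 nt libraries. A tail of 1 to 3 nt was found on 25.7% and 22.2% of miR-185-5p reads in Ago2 CD and on 29.7% and 32.6% in wildtype. MiR-210-3p was tailed in 25.8% and 30.4% in Ago2 CD and 28.8% and 24.97% in wildtype. MiR-22-3p was tailed in 5.19% and 29.5% in Ago2 CD and 23.9% and 6.85% in wildtype. A tail that repeats the next hairpin base counts as untailed, and a sequencing error in the last bases cannot be told apart from a tail. The hairpin base after the full end of each main arm is U. A single U added to the full form of these arms was therefore counted as untailed. None of the 4 arms tested passed (limma adjusted p of 0.999 for each), and 0 of the 253 arms did, 0 of them with an unadjusted p under 0.05. For 88.9% of arms the tailed share did not overlap between the kinds of library.

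MiR-185-5p was the main arm whose tailed share did not overlap between genotypes. Its log2 change of the tailed to untailed ratio was -0.52 (SE 0.43, limma adjusted p = 0.999), and was -0.48 and -0.56 within the 46 nt and 50 nt pairs. Such a position below both wildtype libraries was found in 4.74% of arms. The rare arm miR-22-5p also had it, with 11.3% and 14.5% tailed in Ago2 CD and 16.8% and 14.7% in wildtype. MiR-210-5p lay the other way, with 8.67% and 11.9% in Ago2 CD and 4.05% and 7.35% in wildtype. These shares rest on 17 and 16 tailed reads in Ago2 CD and 3 and 10 in wildtype, and the arm had too few reads to be tested. Of the arms tested, each with at least 200 reads in every library, 2.37% lay that way. MiR-185-3p overlapped, with 31.3% and 47.8% in Ago2 CD and 50% and 39.1% in wildtype.

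Of the tails that could be counted, those of A alone were the most frequent class on miR-185-5p. They were found on 14.6% and 10.7% of its reads in Ago2 CD, against 16.4% and 19.7% in wildtype. Both Ago2 CD libraries were below both wildtype libraries, as in 10.7% of arms tested for A tails. The log2 change was -0.67 (SE 0.39, limma adjusted p = 0.999), with -0.57 and -0.76 within the 46 nt and 50 nt pairs and -0.41 to -0.92 on leaving out each library. At its full end, hairpin position 28, A tails were on 19.6% and 23.4% of reads in Ago2 CD and on 35.7% and 26.4% in wildtype. That single end was not tested, and the share of arms with such a pattern at an end was not counted. Tails of U alone were on 3.08% and 2.35% in Ago2 CD and 2.26% and 2.62% in wildtype; here the log2 change was -0.0004 (SE 0.36), with a limma adjusted p of 0.999. Tails of A followed by U, as in the third read below, were on 2.90% and 2.52% of reads in Ago2 CD and 3.13% and 3.29% in wildtype. All tails of mixed bases together were on 6.85% and 5.96% in Ago2 CD and 8.50% and 8.80% in wildtype, lower in both Ago2 CD libraries, as for 14.2% of arms. The most frequent tailed reads of this arm are shown with the added bases in capitals.
miR-185-5p with A: tggagagaaaggcagttcctgaA
miR-185-5p with AA: tggagagaaaggcagttcctgaAA
miR-185-5p with AU: tggagagaaaggcagttcctgaAT
The read with 1 added A numbered 1451 and 603 in Ago2 CD and 363 and 695 in wildtype, and the one with AA numbered 904 and 456 in Ago2 CD and 346 and 491 in wildtype.

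**Figure D4:**
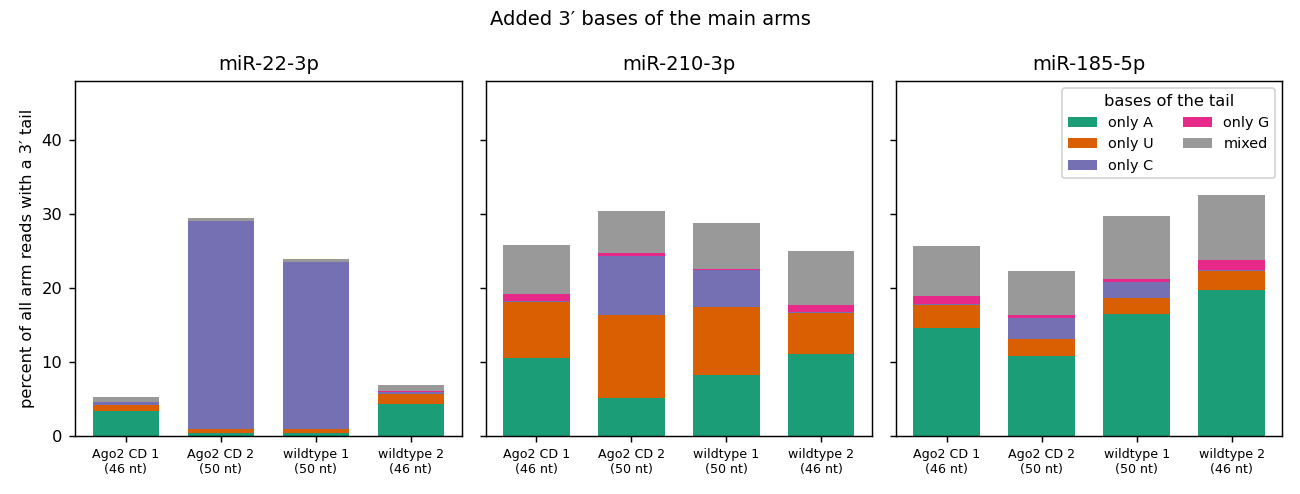
Percent of all reads of an arm (untailed and tailed) that carry a 3′ tail, split by the bases of the tail, in each library for the 3 main arms. C makes up nearly all tails of miR-22-3p in the 50 nt libraries (28.2% of reads in Ago2 CD and 22.6% in wildtype). A is the largest class counted for miR-185-5p in every library.

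In each library miR-210-3p carried U tails more often than the other main arms. Tails of U alone were on 7.60% and 11.2% of its reads in Ago2 CD and on 9.21% and 5.59% in wildtype, and A tails on 10.5% and 5.17% in Ago2 CD and 8.28% and 11.1% in wildtype. The genotypes overlapped in both measures. The log2 change was 0.38 (SE 0.44) for U tails and -0.35 (SE 0.47) for A tails, with a limma adjusted p of 0.999 for each. Most of the U tails counted sat on the form that ends 1 base short, at hairpin position 86. There the U takes the place of the last A. A single U after the full end, position 87, could not be seen, because the next hairpin base is U.
miR-210-3p with U: ctgtgcgtgtgacagcggctgT
miR-210-3p with A: ctgtgcgtgtgacagcggctgaA
Of the untailed and U-tailed reads with that end, 45.6% and 81.7% carried U in Ago2 CD and 79.8% and 38.4% in wildtype, higher in both 50 nt libraries. The untailed ones numbered 614 and 64 in Ago2 CD and 17 and 180 in wildtype, and so were few in the 50 nt libraries. The U-tailed ones numbered 515 and 286 in Ago2 CD and 67 and 112 in wildtype. Reads with C at that end, not in this share, numbered 1 and 118 in Ago2 CD and 25 and 1 in wildtype. C tails were on 0.119% and 7.86% of all miR-210-3p reads in Ago2 CD and on 5.01% and 0.0910% in wildtype.

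On miR-22-3p the tails differed by kind of library. In the 46 nt libraries A tails were on 3.30% of reads in Ago2 CD and 4.26% in wildtype, and C tails on 0.302% in Ago2 CD and 0.297% in wildtype. In the 50 nt libraries A tails were on 0.380% in Ago2 CD and 0.393% in wildtype, and C tails on 28.2% in Ago2 CD and 22.6% in wildtype. The C stood in the place of the last base, U, on reads whose templated part ended at hairpin position 77. Of the untailed and C-tailed reads with that end, 6.25% and 97.9% carried C in Ago2 CD and 97.4% and 4.88% in wildtype.
miR-22-3p with C: aagctgccagttgaagaactgC
This read numbered 139 and 33863 in Ago2 CD and 12523 and 44 in wildtype. Over all arms together, C tails made up 0.153% and 16.3% of reads in Ago2 CD and 12.5% and 0.127% in wildtype. The log2 change for A tails of miR-22-3p was -0.17 (SE 1.46, limma adjusted p = 0.999), and that for U tails was -0.24 (SE 0.50, limma adjusted p = 0.999). Across all 253 arms, 0 passed for A tails, with 0.791% at an unadjusted p under 0.05, and 0 for U tails, with 1.58%.

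**Figure D5:**
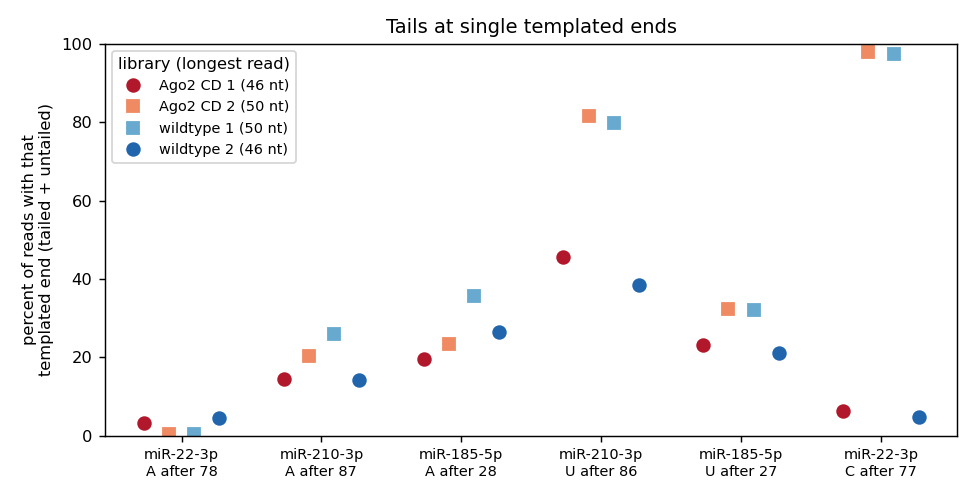
Share of reads with a given templated end (hairpin position) that carry the named base as a tail (y axis, percent of untailed reads plus reads with that tail) in each library; circles are 46 nt and squares 50 nt libraries. C after position 77 of miR-22-3p is on 97.9% and 97.4% of reads in the 50 nt libraries of Ago2 CD and wildtype. A after position 28 of miR-185-5p is on 19.6% and 23.4% in Ago2 CD and on 35.7% and 26.4% in wildtype. These single ends were not tested.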

How the data were processed

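The submitters' processing notes name cutadapt, an adapter trimming program; its version, settings, filters, aligner and build are not given in the sources used here. The deposited files hold counts, the number of reads with exactly each sequence, with no normalization. Repeated rows were summed, and reads with an undetermined base (0.183% to 0.256%) were left out.

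Reads were matched to the hairpins of GENCODE vM21 (GRCm38) on the sense strand. A read's middle placed it on the 5p or 3p side of the hairpin's midpoint. Arms that shared their first 18 nt, or whose most frequent reads were nested, were merged; reads on several arms (0.00849% to 0.0288%) were left out. Arm counts were tested with edgeR 4.0.16 in R 4.3.3 (TMM, filterByExpr), Ago2 CD over wildtype, two-sided; SE is the fold change over the square root of F. Within-pair fold changes used log2 CPM (prior count 2). For ratios and tails, log2 ratios with 0.5 added to each count went into limma 3.58.1. The ratio needed 20 reads per hairpin and library and 10 on the minor arm over all libraries. Tails, lengths and starts needed 200 reads in every library. Intervals are exact at 95%; without molecular identifiers they cover counting error only. DESeq2 1.42.0 was an alternative, fitted to every arm with a read instead of the filtered arms. Folds came from RNAfold 2.7.2. The matching and the tests were tested on simulated data.

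Named arms were both arms of each hairpin, the 3 nearest arms of each main arm, and erythroid arms that passed; miR-144-3p and the features behind counts of 1 or 2 calls in the ratio and length tests were named after their values were seen. The members and lists were chosen with earlier results of these data known. The design text calls the libraries of a genotype biological replicates, and nothing more says whether they came from separate animals. The p-values measure the spread between these libraries, which may be technical. Same-numbered libraries deviated in opposite ways (correlation -0.72 over 583 arms), so the numbers did not pair the libraries. The value for libraries of the same read length (0.72) is the mirror image of this and no separate result, because each genotype has 2 libraries.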

Additional observations from a re-analysis of the deposited data

How the results depend on the processing

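Of 289 values of the arms and hairpins under alternatives, direction and side of the threshold held for 84 on leaving out a library and 161 under other settings. The sign turned for 32 and 5, and 7 newly passed, all of them levels of miR-210-3p, miR-185-5p or miR-22-3p in models that hold read length. The 5 were the level of miR-210-5p with reads on arms as library size (0.38), the arm ratio of mir-185 with a pseudocount of 5 (-0.0929), that of mir-22 with tailed reads added (0.0502), U tails of miR-185-5p for tails of 1 nt (0.0229) and the main start of miR-22-5p with a pseudocount of 5 (0.0885).

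On leaving out each library in turn, the log2 change ranged from -0.21 to 1.19 for the level of miR-22-3p, -0.85 to 0.77 for the ratio of mir-22, -0.37 to 0.46 for that of mir-185, -1.47 to 1.46 and -0.0774 to 0.25 for tails of miR-22-3p and miR-210-3p, -1.62 to 0.24, -1.74 to 1.40 and -0.82 to 0.11 for A tails of miR-22-5p, miR-22-3p and miR-210-3p, and -0.84 to 0.36, -0.0145 to 0.78 and -0.23 to 0.23 for U tails of miR-22-3p, miR-210-3p and miR-185-5p. Mean length ranged from -0.0307 to 0.19 nt for miR-22-5p, -0.0847 to 0.0803 nt for miR-22-3p, -0.69 to 0.55 nt for miR-210-3p and -0.60 to 0.59 nt for miR-185-5p. The main start ranged from -0.38 to 0.19, -0.30 to 0.13, -0.16 to 0.98 and -0.62 to 0.79 for miR-22-5p, miR-22-3p, miR-210-3p and miR-185-5p.

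Calls over all features moved from 2 arms to 0 with miR-451a and miR-486 left out of the table, 6 by DESeq2, 12 without a filter and 26 with read length in the model (added after seeing the data: 42 by limma-voom, 34 by DESeq2 and 111 by non-legacy edgeR), and to 0 to 4 without 1 library. Those of the erythroid list moved from 2 to 0, 4 without a filter and 5 with read length (5, 6 and 10 by the same 3 tools), and to 0 to 2 without 1 library. Calls of the arm ratio went from 2 to 1 with the replicate block and without a minimum on the minor arm, and to 0 to 2 without 1 library. Tailed shares went from 0 to 3 with read length, and A tails to 0 to 1 without 1 library. Mean length went from 1 to 0 with the replicate block, with 50 reads as minimum, with tailed reads added and without any 1 library, and to 2 with read length. With the replicate block 3 arms passed for level, against 2, and it changed no call of the 3 hairpins. The crossed pairing is the read length model. With miR-451a and miR-486 left out, the arms that had passed were no longer in the table; the cause of the other moves was not tested.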

Other observations

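Reads of miR-22-3p with 1 mismatch before the last 3 bases, left out of all counts above, numbered 7.88 and 10.3 per 100 exact reads in Ago2 CD and 9.91 and 8.20 in wildtype. Exact reads are here only those of 21 to 23 nt from the main start, so shorter forms are not in this base. Mismatches of the A-to-G kind, the kind that RNA editing of A gives, numbered 0.642 and 0.662 per 100 in Ago2 CD and 0.701 and 0.504 in wildtype, and those of the A-to-T kind 3.04 and 3.44 in Ago2 CD and 3.77 and 2.80 in wildtype. Mismatches of the G-to-T kind numbered 1.85 and 3.81 in Ago2 CD and 3.22 and 2.18 in wildtype, more in both 50 nt libraries. On miR-185-5p the G-to-T kind numbered 2.28 and 12.5 per 100 such exact reads in Ago2 CD and 9.70 and 2.77 in wildtype. This base leaves out its 19 nt form, with 363 and 3842 reads in Ago2 CD and 1494 and 88 in wildtype. Rates per 100 of all its exact reads would be lower, most of all in the 50 nt libraries.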
